A study of Mus musculus with 6 samples.

Results

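The genes described here are the receptors for the lysophospholipids sphingosine-1-phosphate (S1P) and lysophosphatidic acid (LPA), together with *Enpp2*, which encodes the LPA-producing enzyme autotaxin. They were chosen by name, with no threshold on their values, and are 10 of the 37224 genes in the count table: *S1pr1*, *S1pr2*, *S1pr3* and *S1pr4* for S1P, *Lpar1*, *Lpar2*, *Lpar3*, *Lpar4* and *Lpar6* for LPA, and *Enpp2*. RNA was measured in whole pancreata of wild-type (wt) C57/Bl6J mouse embryos at 13.5 and 15.5 days post coitum (dpc), in 3 independent samples per stage, each a pool of the organs of up to 3 embryos. No sample carried a transgene or a deletion and none was treated, so the comparison is between stages alone. It asks how the transcripts that receive and generate these lipid signals differ between 13.5 and 15.5 dpc. These stages lie around the secondary transition, the period in which pancreas progenitors turn into acinar, duct and endocrine cells. By qPCR the paper reports a peak of *S1pr2*, *Sphk1* and *Sphk2* expression between these stages, which a comparison of their ends cannot show.

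S1P and LPA are small lipids that act outside the cell on G protein-coupled receptors. S1P is made inside cells by sphingosine kinases and exported, whereas most extracellular LPA is cleaved from lysophosphatidylcholine by secreted autotaxin. The receptors differ in the G proteins they engage, and through them in their effect on cAMP, calcium and the YAP transcriptional coactivator. In vertebrate tissues they are known for roles in vessel formation, cell migration and the organisation of epithelia and mesenchyme.

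The libraries held total counts of 10546028 to 16389237, and counts were scaled by the TMM factors of edgeR, which ranged from 0.847 to 1.08. Normalised counts below are counts scaled to the geometric mean of the resulting library sizes. The replicates at 15.5 dpc lay further from each other than those at 13.5 dpc, and replicates 1 and 2 of 15.5 dpc were the furthest apart of the pairs within a stage. The difference between 2 replicates also varied with exon length, with a Spearman correlation across the 15578 tested genes of −0.59, −0.49 and 0.53 for the 3 pairs at 15.5 dpc and of −0.33 to −0.029 at 13.5 dpc. With this length trend removed, the calls of the 9 tested receptor and *Enpp2* genes were the same. Markers of every cell type examined (mesenchyme, mesothelium, smooth muscle, endothelium, epithelium, acinar, endocrine, blood and neural cells) were detected, and the summed acinar markers rose from between 4340 and 5250 CPM (counts scaled to a common library size) at 13.5 dpc to between 27600 and 68500 at 15.5 dpc. In RNA from a whole organ, fewer cells of a type and less RNA per cell cannot be told apart.

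Transcripts of 5 of the 10 genes were lower at 15.5 dpc and none was higher. *Lpar1* fell the furthest, to 31.7% of its 13.5 dpc level, and *S1pr3*, *Lpar2*, *Lpar4* and *Enpp2* all lay between 57.9% and 59.4%. *S1pr1*, *S1pr2*, *S1pr4* and *Lpar6* did not pass the test, and *Lpar3* had too few counts to be tested. Thus the fall took in 3 of the 4 tested LPA receptors and 1 of the 4 S1P receptors. Without 13.5 dpc replicate 1, 13.5 dpc replicate 2 or 15.5 dpc replicate 3, the calls of *Lpar2* and *Lpar4* were lost and 3 of the 10 genes were called. In these 3 analyses the share of all tested genes called lower was 3.29%, 3.74% and 3.65%. Calls are at an adjusted p of 0.05 or below by edgeR's quasi-likelihood test with Benjamini-Hochberg adjustment over all 15578 genes tested. At this threshold 10.7% of all tested genes were lower at 15.5 dpc and 22.3% differed in either direction. In 6 of the 9 tested genes every 15.5 dpc sample lay below every 13.5 dpc sample, as in 23.6% of all tested genes. The median log2 fold change of these 9 tested genes was −0.75, and that of all tested genes was −0.01. With the edgeR values all 5 genes also met the study's own criteria (an adjusted p of 0.1 or below, over 100 normalised counts and a fold below 0.6 or above 1.6), which 3.58% of all tested genes met in the lower direction. With the folds of DESeq2 *Lpar4*, at 0.6004, was not below 0.6 and did not meet them, and the other 4 genes did.

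**Figure D1:**
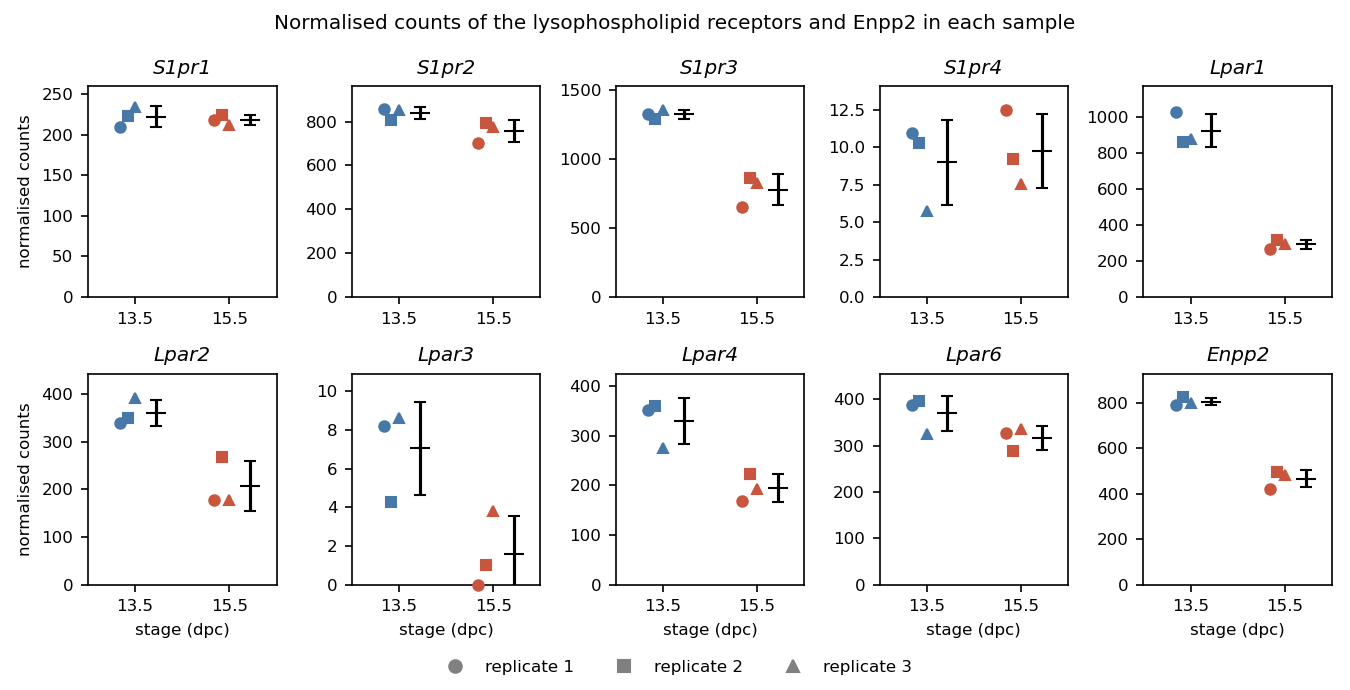
Normalised counts (vertical axes, each from 0) of the 10 genes in the 3 samples at 13.5 dpc (blue) and the 3 at 15.5 dpc (red), with the mean and SD beside them in black (the lower SD bar of *Lpar3* at 15.5 dpc is cut at 0). For *S1pr2*, *S1pr3*, *Lpar1*, *Lpar2*, *Lpar3*, *Lpar4* and *Enpp2* every 15.5 dpc sample lies below every 13.5 dpc sample.

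*S1pr3* was the S1P receptor that fell. It encodes a receptor that couples to several classes of G protein and is known from heart, vessels and mesenchyme. The gene lies on mm10 chromosome 13 at 51408618 to 51422797, on the plus strand, with 2 exon blocks. The 13.5 dpc samples held 1325, 1290 and 1353 normalised counts, and the 15.5 dpc samples 649, 862 and 824. The stages did not overlap, and the lowest value was that of 15.5 dpc replicate 1. The log2 fold change was −0.76 ± 0.12 (SE), a level of 58.9% of that at 13.5 dpc, with an adjusted p of 0.00579 in edgeR. The 13.5 dpc samples were close to each other, with a coefficient of variation of 2.36% (n = 3), against 14.6% at 15.5 dpc.

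*S1pr2*, which encodes the receptor that couples to Gi, Gq and other G proteins and is the subject of the study, lies on chromosome 9 at 20965952 to 20976793 on the minus strand. It was read at 856, 807 and 853 normalised counts at 13.5 dpc and at 703, 795 and 774 at 15.5 dpc. Every 15.5 dpc sample was below every 13.5 dpc sample, but the means of 839 ± 27.8 and 757 ± 48.1 (SD, n = 3 each) were close. The log2 fold change of −0.15 ± 0.09 (SE) did not pass the test (adjusted p = 0.268 in edgeR). Its 95% interval runs from 0.778 to 1.05 of the 13.5 dpc level, beside a fold of 0.589 for *S1pr3*. Setting these values side by side is no test of the difference between the genes.

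*S1pr1* encodes a Gi-coupled receptor that stabilises endothelial junctions and guides lymphocytes. It lies on chromosome 3 at 115710433 to 115715055, minus strand. The samples had 210, 224 and 235 normalised counts at 13.5 dpc and 219, 225 and 213 at 15.5 dpc. These ranges overlapped, and the level at 15.5 dpc was 98.2% of that at 13.5 dpc (95% interval of the fold 0.828 to 1.17, adjusted p = 0.874 in edgeR). *S1pr4*, a receptor of blood cells on chromosome 10 (81497745 to 81500132, minus strand), gave only 12, 12 and 8 raw counts at 13.5 dpc and 9, 9 and 6 at 15.5 dpc. At this depth its fold was bounded only between 0.597 and 2.00 (adjusted p = 0.82 in edgeR), and no difference was detectable.

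Among the LPA receptors *Lpar1* stood out. It encodes the most widely expressed LPA receptor, known for the migration and proliferation of mesenchymal and neural cells, and spans 58435255 to 58553898 on the minus strand of chromosome 4 in 9 exon blocks. From 1029, 865 and 880 normalised counts at 13.5 dpc it went to 266, 318 and 295 at 15.5 dpc, so that the highest sample at 15.5 dpc was far below the lowest at 13.5 dpc. The level fell 3.15-fold (log2 fold change −1.66 ± 0.12 SE, adjusted p = 0.000472 in edgeR). Of all tested genes 0.706%, or 110 genes, had a lower log2 fold change. For *Lpar2*, *Enpp2*, *S1pr3* and *Lpar4* this share was 6.55% to 7.27%.

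*Lpar2* and *Lpar4* fell less. *Lpar2*, whose product couples to several G proteins and is found in blood and epithelial cells, lies on chromosome 8 at 69822429 to 69831102 on the plus strand. It had 339, 351 and 392 normalised counts at 13.5 dpc and 177, 268 and 178 at 15.5 dpc. The 15.5 dpc replicate 2 stood above the other 15.5 dpc samples but below all at 13.5 dpc. The log2 fold change was −0.79 ± 0.18 (SE), with an adjusted p of 0.0207 in edgeR. This call was lost without any one of the 13.5 dpc replicates or without 15.5 dpc replicate 3 (adjusted p = 0.0695, 0.0732, 0.0915 and 0.0903 in edgeR).

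*Lpar4*, a receptor of another structural branch known from blood and lymph vessel formation, lies on chromosome X at 106920625 to 106933900 on the plus strand. It was read at 353, 361 and 276 normalised counts at 13.5 dpc and 169, 224 and 193 at 15.5 dpc. The 13.5 dpc replicate 3 was the lowest of its stage and still above every 15.5 dpc sample. The level at 15.5 dpc was 59.4% of that at 13.5 dpc (log2 fold change −0.75 ± 0.16 SE, adjusted p = 0.0155 in edgeR). Without 13.5 dpc replicate 1, 13.5 dpc replicate 2 or 15.5 dpc replicate 3 the adjusted p in edgeR was 0.0758, 0.0739 and 0.0708.

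*Lpar6*, of the same branch as *Lpar4* and known for its role in hair follicles, is a single-exon gene on chromosome 14 at 73237891 to 73240358, plus strand. It lies within the span of *Rb1* on the opposite strand and shares 408 exon bases with it. Genes that lie wholly within exons of the opposite strand had up to 8269 counts in this table, whereas none of the 293 genes wholly within exons of the same strand had any, so counting appears to have used the strand. *Lpar6* had 387, 396 and 325 normalised counts at 13.5 dpc and 328, 287 and 335 at 15.5 dpc. The ranges overlapped and the log2 fold change of −0.22 ± 0.12 (SE) did not pass the test (adjusted p = 0.214 in edgeR, 95% interval of the fold 0.703 to 1.04). With library size as the only scaling it passed, at −0.44 and an adjusted p of 0.0408 in edgeR, but this scaling also moved the median of all genes to −0.22.

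*Lpar3*, a receptor known from the uterus and found on chromosome 3 at 146220961 to 146286214 (plus strand), was close to the limit of detection. It had 9, 5 and 12 raw counts at 13.5 dpc and 0, 1 and 3 at 15.5 dpc, and did not pass the filter on low counts. Summed over samples these were 26 and 4 counts, and the ratio scaled to library size was 0.225 (exact 95% interval 0.057 to 0.65, which covers counting error only), and 0.0827 without 15.5 dpc replicate 3. Every 15.5 dpc sample was at or under the floor of 3 counts.

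*Enpp2*, like *S1pr3*, *Lpar1*, *Lpar2* and *Lpar4*, fell. The gene spans 54838898 to 54920146 on the minus strand of chromosome 15 and has 27 exon blocks. The 13.5 dpc samples had 790.0, 823 and 800.2 normalised counts and the later ones 422, 494 and 482, with no overlap and a small spread (804 ± 16.9 against 466 ± 38.6, SD, n = 3 each). The log2 fold change was −0.79 ± 0.10 (SE), a level of 58.0%, with an adjusted p of 0.0023 in edgeR. Its log2 ratio to *S1pr3* within each sample was nearly the same at both stages. On the scale of RPKM (reads per kilobase of exon, scaled to a common library size), *S1pr3* over *Enpp2* was 0.35 ± 0.06 at 13.5 dpc and 0.36 ± 0.10 at 15.5 dpc (SD, n = 3 each).

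**Figure D2:**
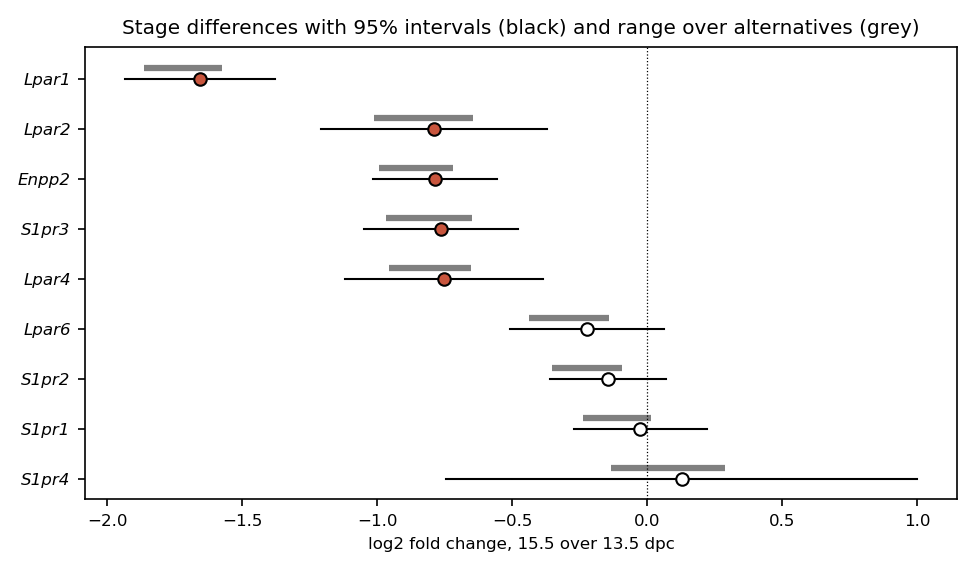
Log2 fold change from 13.5 to 15.5 dpc of the 9 tested genes (points, filled where the adjusted p was 0.05 or below), with 95% intervals as black lines and the range over the alternative analyses as grey bars. *Lpar1* stands apart at −1.66, *Lpar2*, *Enpp2*, *S1pr3* and *Lpar4* lie together between −0.79 and −0.75, and the intervals of *Lpar6*, *S1pr2*, *S1pr1* and *S1pr4* include 0.

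The order of the genes by level differed between the stages. Levels were compared between genes as RPKM, which divides by the exon length in the table. In the GENCODE annotation *S1pr2* (from 20962361), *Lpar6* (to 73243294) and *Enpp2* (to 54952892) extend beyond the positions given above. What this means for the order and the family shares was not tested. At 13.5 dpc *S1pr2* (23.6 ± 0.782) and *S1pr3* (23.3 ± 0.55) shared the first place with overlapping samples. *Enpp2* (18.3 ± 0.386) and *Lpar1* (17.1 ± 1.67), which also overlapped, came next, and *Lpar6* followed at 11.9 ± 1.24. *Lpar4* (6.16 ± 0.869) and *S1pr1* (5.82 ± 0.332) overlapped, *Lpar2* was at 4.89 ± 0.374, and *S1pr4* (0.298 ± 0.0937) and *Lpar3* (0.223 ± 0.0758) were far below, with overlapping samples.

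At 15.5 dpc *S1pr2* stood alone at the top with 21.3 ± 1.35 RPKM, above *S1pr3* at 13.7 ± 2.00 in every sample. *Enpp2* (10.6 ± 0.878) and *Lpar6* (10.2 ± 0.824) overlapped behind them. *Lpar1* was at 5.40 ± 0.484, below *S1pr1* (5.72 ± 0.159) in the mean, and only its highest sample (5.87) lay within the range of *S1pr1* (5.56 to 5.88). *Lpar4* (3.64 ± 0.516) and *Lpar2* (2.81 ± 0.709) overlapped below these, and *S1pr4* (0.323 ± 0.0826) and *Lpar3* (0.0508 ± 0.062) were again lowest (SD, n = 3 each). The order depends on the length correction. In CPM *S1pr3* had rank 1 at both stages and *S1pr2* had rank 3 at 13.5 dpc and rank 2 at 15.5 dpc, *Lpar1* had rank 2 in place of 4 at 13.5 dpc and was above *S1pr1* at 15.5 dpc, and *Lpar2* was above *Lpar4* at both stages.

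Added over each family, S1P receptor transcripts summed to 53.0 ± 1.29 RPKM at 13.5 dpc and 41.1 ± 3.32 at 15.5 dpc, or 77.4% of the earlier sum. LPA receptor transcripts summed to 40.4 ± 2.78 and 22.2 ± 1.07, or 55.0% (SD, n = 3 each). For both families every 15.5 dpc sample was below every 13.5 dpc sample. *S1pr5* and *Lpar5* were included in these sums for completeness. The former had no count in any sample, and the latter had 13 counts over the 13.5 dpc samples and 7 over the 15.5 dpc samples.

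Within the S1P family *S1pr2* and *S1pr3* held nearly equal shares at 13.5 dpc, of 44.5% ± 0.649 and 44.0% ± 0.121. At 15.5 dpc *S1pr2* held 52.9%, 51.1% and 51.7% in the 3 samples and *S1pr3* 30.7%, 34.8% and 34.5%. The share of *S1pr1* was also higher in every sample, at 13.2% or more against 11.3% or less, although its own level did not pass the test. *S1pr4* held at most 1.11% in any sample.

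The LPA family showed the larger exchange. *Lpar1* made up 44.0%, 39.5% and 43.2% of LPA receptor transcripts at 13.5 dpc and 23.3%, 25.4% and 24.2% at 15.5 dpc. *Lpar6* made up 29.3% ± 1.88 and then 45.9% ± 5.36 (SD, n = 3 each, lowest later sample 39.8%), and so was above *Lpar1* in all samples of the later stage on the RPKM scale. In normalised counts, not divided by length, *Lpar1* was above *Lpar6* in 15.5 dpc replicate 2 (318 against 287). The shares of *Lpar2* (12.2% ± 1.77 and 12.6% ± 2.69) and *Lpar4* (15.2% ± 1.46 and 16.4% ± 1.57) overlapped between the stages. A share rises when the other members fall, and the level of *Lpar6* itself did not pass the test. Without division by length *Lpar1* held 46.3% and 28.8% and *Lpar6* 18.5% and 31.4%.

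**Figure D3:**
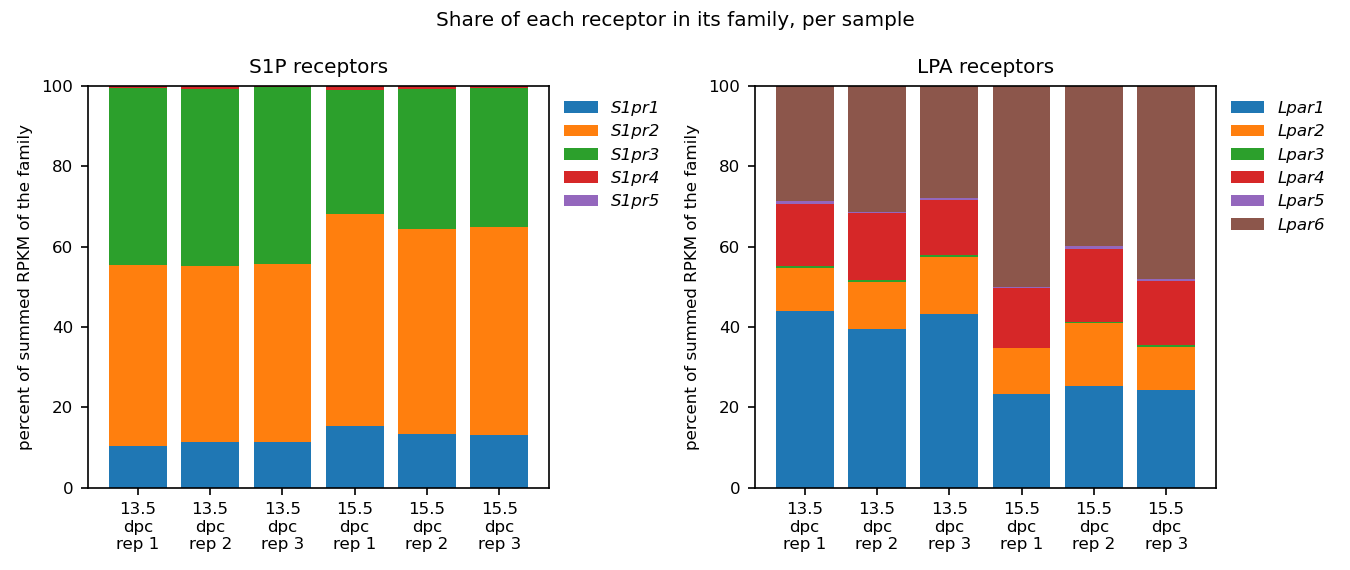
Percent of the summed RPKM of the S1P receptors (left) and LPA receptors (right) contributed by each gene, in each of the 6 samples (rep, replicate). The orange *S1pr2* part grows from 44.5% to 51.9% on average while green *S1pr3* shrinks from 44.0% to 33.3%, and brown *Lpar6* grows from 29.3% to 45.9% while blue *Lpar1* shrinks from 42.2% to 24.3%.

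To compare genes within the same sample, which needs no scaling between libraries, log2 ratios of RPKM were formed for 5 pairs. *Lpar1* over *Lpar6* went from 0.53 ± 0.17 to −0.91 ± 0.23, a difference of −1.44. *Lpar1* over *S1pr3* went from −0.46 ± 0.14 to −1.34 ± 0.10, and *Lpar1* over *Enpp2* from −0.11 ± 0.16 to −0.98 ± 0.04. *S1pr3* over *S1pr2* went from −0.01 ± 0.03 to −0.64 ± 0.13 (SD, n = 3 each). In these 4 pairs the stages did not overlap, with p = 0.1 in the two-sided exact permutation test, the smallest that 3 against 3 samples allow, and 0.125 after Benjamini-Hochberg adjustment over the 5 pairs. Hence none could reach 0.05 in this design. *S1pr3* over *Enpp2* differed by 0.01 with overlapping stages (exact permutation p = 0.8). A ratio of genes of unequal exon length still carries the length trend between samples. With that trend removed, the log2 fold changes were −0.68 for *S1pr3*, −0.18 for *S1pr2*, −1.58 for *Lpar1* and −0.29 for *Lpar6*. The main analysis gave −0.76, −0.15, −1.66 and −0.22.

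Transcripts of cell type markers, measured in the same samples, also differed between the stages. Of 10 mesenchyme markers 3 were lower and 2 higher at 15.5 dpc by the edgeR test, their mean log2 CPM was lower by −0.36, and their summed CPM ranged from 9650 to 10900 at 13.5 dpc and from 7120 to 10600 at 15.5 dpc. *Pdgfra* (log2 fold change −1.33, adjusted p = 0.00605 in edgeR) and *Nkx3-2* (−1.70, adjusted p = 0.00162) were among those that fell, and *Dcn* (0.61, adjusted p = 0.0127) among those that rose. Of 8 endothelium markers 1 was higher and none lower, with summed CPM of 510 to 547 and 518 to 592. Of 7 epithelium markers 4 were higher and 1 lower, with summed CPM of 1870 to 1980 and of 2500 to 3150. Of 6 leukocyte markers 2 were lower (120 to 122 and 93.4 to 116 CPM), and of 6 neural and glial markers 3 were lower (80.4 to 83.6 and 58.0 to 62.4 CPM). In the same test 2 of 6 smooth muscle and pericyte markers were higher and 1 lower, 1 of 5 mesothelium markers and 1 of 5 endocrine markers were higher and 1 of each lower, and 1 of 5 erythroid markers was higher and 2 lower. No marker of any list was at 0.

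Set against the mean log2 level of the mesenchyme markers in the same sample, the 5 genes that fell were lower in every 15.5 dpc sample than in any 13.5 dpc sample, as were 7.4% of all tested genes. The difference was −1.26 for *Lpar1*, −0.41 for *S1pr3*, −0.42 for *Enpp2*, −0.43 for *Lpar2* and −0.36 for *Lpar4*. *S1pr1*, *S1pr2* and the sparse *S1pr4* were higher relative to these markers, by 0.33, 0.21 and 0.41, without overlap, as were 49.7% of all tested genes, and *Lpar6* and *Lpar3* overlapped. Relative to the endothelium markers the differences were −1.69 for *Lpar1*, −0.84 for *S1pr3*, −0.85 for *Enpp2*, −0.86 for *Lpar2* and −0.80 for *Lpar4*. Here *S1pr1*, which endothelial cells are known to express, overlapped between the stages (−1.56 ± 0.08 and −1.66 ± 0.01, SD, n = 3 each). *S1pr2* was lower than at 13.5 dpc by this measure (−0.22), with no overlap, as were 31.8% of all tested genes. Relative to the mesothelium markers the same 5 genes had differences of −0.69 to −1.59. Relative to the epithelium markers, which were higher at 15.5 dpc, all 10 genes and 61.4% of all tested genes were lower without overlap, *S1pr1* by −0.45, *S1pr2* by −0.58, *Lpar6* by −0.64 and *Lpar1* by −2.05. These ratios are on the log2(CPM + 1) scale and carry no test. How far the number of cells of each type contributes to the falls was not tested.

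**Figure D4:**
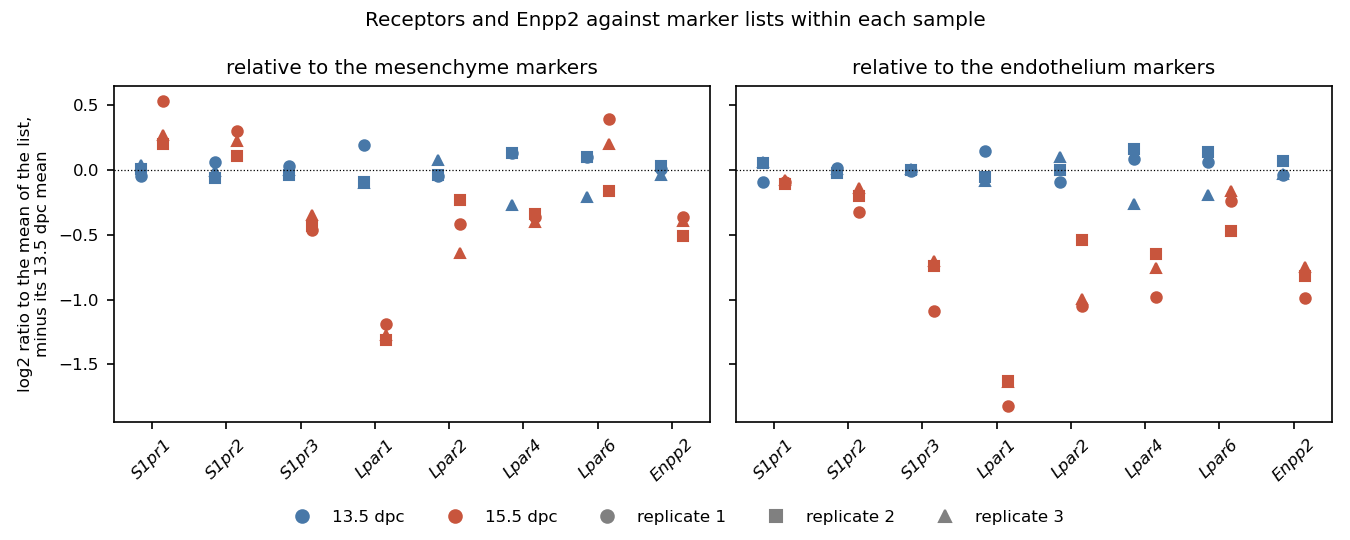
Log2 ratio of each gene to the mean of the mesenchyme markers (left) or the endothelium markers (right) in the same sample, as a difference from its 13.5 dpc mean, for 13.5 dpc (blue) and 15.5 dpc (red) samples. *Lpar1* is lowest in both panels, and *S1pr1* lies above 0 in the left panel and close to 0 in the right panel at 15.5 dpc.

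Promoters were looked at for sequence features in the RefSeq windows (GRCm38.p6) from 250 bases before to 50 after each start. The table held windows for 8 of the 10 genes, and *S1pr1* and *Enpp2* are not in it. From each family the upstream 250 bases of a receptor that fell and of a receptor that did not pass the test are shown, 5′ to 3′ on the strand of the gene. *S1pr3* (chr13:51408368-51408617, plus strand) and *Lpar4* (chrX:106920375-106920624, plus strand) fell, and *S1pr2* (chr9:20976794-20977043, minus strand) and *Lpar6* (chr14:73237641-73237890, plus strand) did not pass. Capitals mark matches on either strand to the GC box, spelled GGGCGG, to the TATA box, spelled TATAAA, or to the motif of the YAP partner TEAD, spelled GGAATG.
S1pr3: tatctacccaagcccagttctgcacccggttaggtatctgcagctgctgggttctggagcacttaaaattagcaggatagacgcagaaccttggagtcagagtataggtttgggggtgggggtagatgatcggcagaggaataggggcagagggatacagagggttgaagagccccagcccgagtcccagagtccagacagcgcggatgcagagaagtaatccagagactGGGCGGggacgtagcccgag
S1pr2: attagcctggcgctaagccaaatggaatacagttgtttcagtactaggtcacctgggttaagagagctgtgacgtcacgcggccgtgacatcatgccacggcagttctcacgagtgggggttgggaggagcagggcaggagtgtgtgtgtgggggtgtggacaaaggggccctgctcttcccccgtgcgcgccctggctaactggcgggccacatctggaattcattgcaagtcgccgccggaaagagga
Lpar4: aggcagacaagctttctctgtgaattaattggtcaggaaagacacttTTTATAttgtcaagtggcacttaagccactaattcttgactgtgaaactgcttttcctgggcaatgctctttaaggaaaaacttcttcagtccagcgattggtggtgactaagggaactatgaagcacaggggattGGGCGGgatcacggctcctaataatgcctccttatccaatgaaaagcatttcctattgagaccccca
Lpar6: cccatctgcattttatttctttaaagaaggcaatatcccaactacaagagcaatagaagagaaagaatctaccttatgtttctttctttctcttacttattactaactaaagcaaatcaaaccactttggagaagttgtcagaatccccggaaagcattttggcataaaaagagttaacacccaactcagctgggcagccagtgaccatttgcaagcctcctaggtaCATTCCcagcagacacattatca

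The *S1pr3* window holds a GC box that begins 20 bases before the start. *Lpar4* holds a GC box at 67 bases and a TATA box at 203 bases before the start, the latter on the minus strand. *Lpar6* holds the TEAD motif on the minus strand at 23 bases before the start. For *S1pr2* none of the 3 motifs falls within the printed bases, and a GC box begins 8 bases after them. Over all windows of the table GGGCGG is found in 35.7%, GGAATG in 14.7% and TATAAA in 13.6%. GC content was 59.0% in the window of *S1pr3*, 62.0% in that of *S1pr2*, 46.7% in that of *Lpar4* and 40.0% in that of *Lpar6*, against a median of 52.7% over the table. A match describes the letters of the window and no binding was measured.

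The other genes of the pathway were called about as often as all tested genes. Of 38 genes in 4 lists, 32 were tested, 5 were higher and 1 was lower at 15.5 dpc by the edgeR test, against 22.3% of all tested genes called, 11.6% higher and 10.7% lower. For S1P, the exporter *Spns2* (299 ± 22.03 to 457 ± 1.65 normalised counts, adjusted p = 0.00612 in edgeR) and the phosphatase *Sgpp1* (474 ± 27.3 to 721 ± 29.8, adjusted p = 0.00508) rose. The lyase *Sgpl1*, which breaks S1P down irreversibly, fell (1159 ± 39.4 to 762 ± 182, adjusted p = 0.0434). This call was lost with a replicate block, without any one of the 13.5 dpc replicates and without 15.5 dpc replicate 3. The kinases that make S1P had higher means at 15.5 dpc without passing the test, with 646 ± 21.5 and 849 ± 117 for *Sphk1* (adjusted p = 0.0523 in edgeR) and 804 ± 4.49 and 1006 ± 146 for *Sphk2* (adjusted p = 0.0885, SD, n = 3 each). In all, 2 of 11 genes for S1P making, breakdown and export rose and 1 fell, with a median log2 fold change of 0.07.

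Of the genes other than *Enpp2* that make LPA or its precursors, 3 of the 4 tested rose while *Enpp2* fell. Of all tested genes 11.6% were called higher. *Liph*, a phospholipase that makes LPA from phosphatidic acid, went from 36.9 ± 2.42 to 267 ± 74.6 normalised counts, a 7.17-fold rise (log2 fold change 2.84 ± 0.23 SE, adjusted p = 0.000668 in edgeR). *Pla1a* (log2 fold change 0.61, adjusted p = 0.00792 in edgeR) and *Pla2g16* (0.97, adjusted p = 0.0184) also rose. The call of *Pla2g16* was lost without any one of the 13.5 dpc replicates or without 15.5 dpc replicate 3 (adjusted p of 0.0561 to 0.0846 in edgeR), and that of *Pla1a* without 13.5 dpc replicate 1 (0.0517). In the same samples 5 of 5 acinar markers and 4 of 7 epithelium markers rose and 1 epithelium marker fell, and their part in these rises was not tested. The near relative *Gpr34* was the only one of the 6 other receptors that could be tested, and did not pass (log2 fold change −0.30, adjusted p = 0.423 in edgeR). The calls over these lists numbered 11 with the length trend removed, 3 without 13.5 dpc replicate 1 and 15 when 15.5 dpc replicate 2 was left out, where 32.8%, 7.83% and 48.0% of all tested genes were called.

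**Figure D5:**
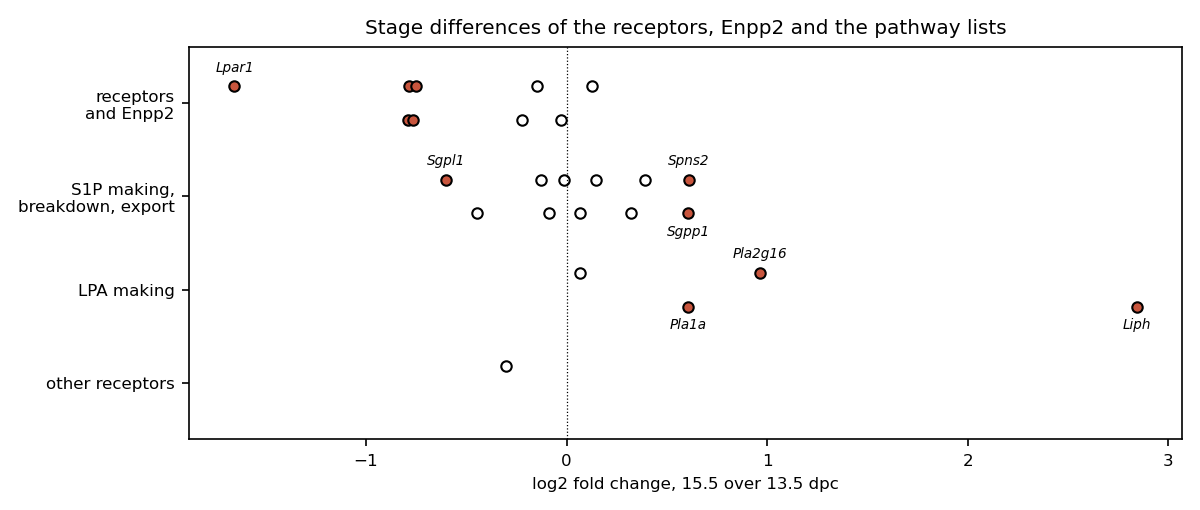
Log2 fold change from 13.5 to 15.5 dpc of the tested receptors and *Enpp2* (top row) and of the tested genes of 3 pathway lists, filled where the adjusted p was 0.05 or below. Filled points of the top row lie to the left of 0. Those of the genes that make LPA or its precursors (labelled LPA making) lie to the right, up to 2.84 for *Liph*.

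Finally, the genes with the nearest expression profile were sought for each tested gene, as the root mean square distance between log2 CPM profiles over the 6 samples, each centred on its own mean. Because there are only 2 stages, such neighbours share little more than a stage difference, and the distances are a description. For *S1pr3* they were *Afap1l2* (0.017), *Rgs12* (0.029) and *Nkd1* (0.032), and for *Enpp2* *Ccdc136* (0.025), *Arhgap28* (0.039) and *Gem* (0.040). *Lpar1* lay nearest to *Prtg* (0.090), *Sall4* (0.098) and *Gap43* (0.11). *Lpar2* lay nearest to *Dtna* (0.049), *Zswim5* (0.053) and *Dennd5b* (0.055), and *Lpar4* to *Zfp37* (0.065), *Mylip* (0.068) and *Zfp974* (0.069). For *Lpar6* they were *Btg1* (0.023), *Suv39h2* (0.041) and *Hdac2* (0.043), and for *S1pr2* *Mknk2* (0.020), *Gm10093* (0.021) and *Plod1* (0.022). *S1pr1* had *Ubfd1* (0.033), *Ap2a1* (0.035) and *Pank2* (0.035), and the sparse *S1pr4* had *Ly6g6e* (0.085), *Gm8623* (0.088) and *Apbb1ip* (0.098). Between the genes described here *S1pr3* and *Enpp2* were the closest pair (0.066), followed by *S1pr1* and *S1pr2* (0.10) and by *Lpar4* and *Enpp2* (0.13).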

How the data were processed

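The authors aligned single-end reads of strand-specific poly(A) libraries with GSNAP (mm10). They counted unique alignments per Ensembl gene with featureCounts 1.4.6 and deposited the raw counts with the exon length. The genes were taken by name as families, and they and the lists were chosen with earlier results of these data known. Named are all 10 genes, the called genes of the pathway lists with *S1pr5*, *Lpar5*, *Sphk1* and *Sphk2*, the 3 nearest profiles of each, and *Gpr34* and the markers *Pdgfra*, *Nkx3-2* and *Dcn*, chosen after their values were seen. The result of 1 of the 4 pathway lists is not reported here on its own. Counts were analysed with edgeR 4.0.16 in R 4.3.3 (filterByExpr, TMM, quasi-likelihood test, 3 against 3 samples, no covariates, Benjamini-Hochberg adjustment over 15578 genes). The tested genes held 99.9% of counts. The alternatives were RLE, upper quartile and no normalisation factors, DESeq2 1.42.0, other filters, a replicate block, removal of a length trend (lowess span 0.5), the study's thresholds, levels not divided by length, and each sample left out. Fewer than 1.25% of the 50-base windows of any of the 10 genes recur in other transcripts. On simulated data 199 of 200 changed genes were recovered among 15567, with 12 false calls. Recovery of differences as small as those of *S1pr3*, *Lpar2*, *Lpar4* and *Enpp2*, at the replicate spread seen here, was not tested.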

Additional observations from a re-analysis of the deposited data

How the results depend on the processing

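Over the 9 tested receptors and *Enpp2* under the alternatives, 122 of 134 fold changes kept direction and call, 7 lost the call, 1 gained it and 4 changed sign. *Lpar1*, *S1pr3* and *Enpp2* were called lower in all of the alternatives, with log2 fold changes of −1.86 to −1.57, −0.97 to −0.65 and −0.99 to −0.72. The number of these genes called was 5, and 3 to 5 with a sample left out (3 without 13.5 dpc replicate 1, 13.5 dpc replicate 2 or 15.5 dpc replicate 3); *Lpar2* and *Lpar4* were those lost. It was 6 with library size only. The sign changes were in genes that did not pass the test, *S1pr4* at −0.0821 with library size only, and 2 genes when a sample was left out, in a range of −0.0688 to 0.0131 for *S1pr1* and of −0.14 to 0.287 for *S1pr4* (both changed sign without 13.5 dpc replicate 3, and *S1pr4* also without 15.5 dpc replicate 1). The pathway lists had 6 calls, 11 with a length trend removed, 2 under the study's thresholds, and 3 to 15 with a sample left out (3 without 13.5 dpc replicate 1, 15 without 15.5 dpc replicate 2). The share of all tested genes called moved alike, from 22.3% to 32.8% with the length trend removed, and to 7.83% and 48.0% in these left-out analyses. The cause was not tested.

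The labels give a replicate number and no pairing. Deviations from the stage means correlated between samples of 1 number at 0.22, −0.22 and 0.04, which cannot settle whether such samples share a batch. With a replicate block 5 of the receptors and *Enpp2* and 5 pathway genes were called. Depth limits *S1pr4* and *Lpar3*, with at most 12 counts per sample; the ratio of *Lpar3* ran from 0.0827 to 0.317 with a sample left out. Without division by length *S1pr3* held 55.3% and 44.0% of the S1P receptor counts and *S1pr2* 35.0% and 43.0%, at 13.5 and 15.5 dpc.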
